A study of Drosophila melanogaster with 15 samples.

Results

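In Kc167 cells, 164 of the 17481 annotated D. melanogaster genes had low mRNA levels both after knock-down of the remodelling ATPase isoform DOM-B and after knock-down of the histone variant H2A.V. They were selected on the mean normalised read counts of the DOM-B, H2A.V and CTRL libraries. A gene entered with a CTRL mean of at least 50 normalised reads and a log2 ratio over CTRL of -0.8 or less in both knock-downs, computed after adding 1 read to each mean. The rule was met by 167 genes, and His2Av, Appl and Smyd4-2 were left out. By known role, 74 of the 164 genes were placed in groups. Among them were 8 genes of lipid metabolism, 8 of glycan synthesis and turnover and 12 of the cell surface and signalling. A further 8 coded for immune or secreted proteins and 7 belonged to the germ line and small RNA pathways. After DOM-A RNAi 58 of the 164 genes (35.4%) were lower than in CTRL, against 16.6% of the genes with a CTRL mean of at least 50. After TIP60 RNAi 56 (34.1%) were lower, against 13.6%. The same CTRL libraries stood in the rule and in these comparisons.

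Domino is a SWI2/SNF2-type ATPase whose gene gives rise to the splice isoforms DOM-A and DOM-B. SWR1-type remodellers, the subgroup of this family to which Domino is related, exchange canonical H2A for an H2A.Z-type variant in nucleosomes. In flies that variant is H2A.V, which also carries the damage-responsive tail of H2A.X. The study reports loss of H2A.V from chromatin after depletion of DOM-B but not of DOM-A. Tip60 is a histone acetyltransferase of the MYST family that works together with a Domino-type ATPase in NuA4-like complexes. H2A.Z-type nucleosomes are found next to the start sites of active genes, and nucleosome acetylation by NuA4-like enzymes is likewise concentrated near promoters.

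Kc167 is a D. melanogaster embryonic cell line with traits of blood cells. The cells were treated for 6 days with dsRNA against the DomB isoform, H2Av, the DomA isoform or Tip60, and the control cells (CTRL) with dsRNA against GST in replicates 1 and 3 or GFP in replicate 2, with 3 biological replicates per group. Control sequence and replicate therefore cannot be told apart in CTRL. RNAi leaves residual target. Before RNA extraction 1 D. virilis cell was added for every 2 of these cells, and the normalised read counts given here were scaled by the reads of the D. virilis cells, so that they refer to the number of cells and not to the total of a library. Fewer expressing cells and less mRNA per cell cannot be told apart in such bulk samples.

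The 15 libraries held between 8662976 and 14679536 D. melanogaster reads in genes and between 1766397 and 3037203 D. virilis reads. His2Av mRNA stood at 221, 1930 and 273 normalised reads in the H2A.V RNAi libraries, against 11300, 12180 and 10300 in the CTRL libraries. Replicate 2 of the H2A.V knock-down thus kept the most target mRNA. His2Av also lay below every CTRL library after DOM-A RNAi (7451, 7189 and 7251) and TIP60 RNAi (7668, 6610 and 7759), and its part in the levels of the genes in these knock-downs was not tested. Tip60 mRNA averaged 41.3 ± 6.3 normalised reads after TIP60 RNAi and 258 ± 17 in CTRL (SD, n = 3 each). Reads of the isoforms of dom were counted together, and its level gives no check of the DOM-A and DOM-B labels. The summed level of 13 blood cell markers lay at 47160 to 59610 normalised reads in DOM-B RNAi cells, 18530 to 39070 in H2A.V RNAi cells, 87310 to 100800 in DOM-A RNAi cells and 33280 to 96590 in TIP60 RNAi cells, against 25150 to 30590 in CTRL. Of these 13 markers 10 had a CTRL mean of at least 50. Abundant markers dominate the sum, such as Hml with a CTRL mean of 13760. The marker crq averaged 1293, 1045, 1146 and 1049 after DOM-B, H2A.V, DOM-A and TIP60 RNAi, against 1451 in CTRL. Of 4 neuron markers 2 had a CTRL mean of at least 50, and of 3 muscle markers 1. The 3 fat body markers and the ovarian somatic marker tj were at or near 0 in every group.

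The genes ranged in abundance between CTRL means of 50.9 and 26886 normalised reads, with a median of 231. Their median log2 ratio over CTRL was -1.16 after DOM-B RNAi and -1.49 after H2A.V RNAi, both of which the rule fixed at -0.8 or less. Over the 6916 genes with a CTRL mean of at least 50, the medians were -0.03 after DOM-B RNAi and -0.30 after H2A.V RNAi. Either cut-off alone was met by 254 genes after DOM-B RNAi and by 772 after H2A.V RNAi. In 119 of the 164 genes the H2A.V ratio was the lower of both, and in 45 the DOM-B ratio was. The DOM-B libraries all lay below the CTRL libraries in 149 of the 164 genes and the H2A.V libraries in 150. A rule on the means of these same libraries favours such separation, so that these counts are a description only. Just inside the cut-off stood Rpe, CG12075 and lncRNA:CR44662 with DOM-B ratios of -0.802 each, and just outside it Oscillin with a DOM-B ratio of -0.799, CG15914 with an H2A.V ratio of -0.798 and CG8500 with an H2A.V ratio of -0.795.

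Replicates of a knock-down differed for many of these genes. Replicate 2 was the highest DOM-B library in 102 of the 164 genes, and replicate 3 was the lowest in 89. Of the DOM-A libraries, replicate 2 was the highest in 104 genes and replicate 3 the lowest in 104. Replicate 2 was the highest H2A.V library in 84 genes. For TIP60 RNAi, replicate 1 was the highest in 60 and replicate 3 the lowest in 81. Among the CTRL libraries, replicate 3 was the lowest in 101 genes. Without replicate 2 of DOM-B RNAi, 215 genes met the rule, of which 153 belonged to the 164. Without replicate 3 of CTRL 191 genes met it, and 146 of these were shared.

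**Figure D1:**
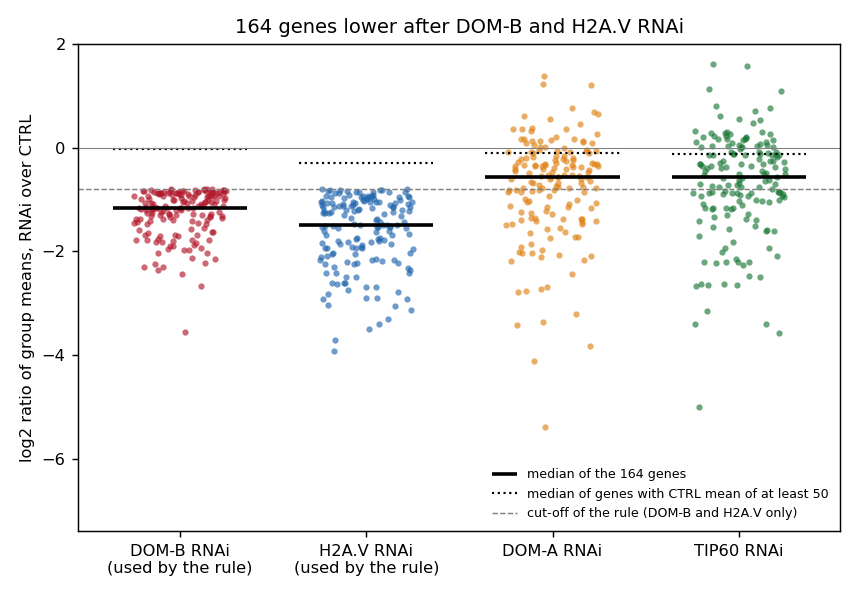
Log2 ratio of the group mean over the CTRL mean (y axis, 1 read added to each mean) for the 164 genes after each knock-down (x axis), with 1 point per gene. The solid lines mark the medians of the 164 genes (-1.16 after DOM-B RNAi, -1.49 upon H2A.V RNAi, -0.57 after DOM-A RNAi and -0.57 after TIP60 RNAi), the dotted lines those of the 6916 genes with a CTRL mean of at least 50, and the dashed line the cut-off of -0.8, which applied to DOM-B and H2A.V alone and shapes both of their columns.

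After DOM-A RNAi the genes spread to both sides of their CTRL level. At an adjusted p below 0.01 (edgeR quasi-likelihood test with the replicate as block, Benjamini-Hochberg over 11424 genes), 58 of the 164 genes (35.4%) were lower than in CTRL, 1 (0.61%) was higher and 105 were not called. Over all genes tested 10.4% were lower and 8.96% higher, and among the 6916 genes with a CTRL mean of at least 50, 16.6% were lower and 8.94% higher. The median log2 fold-change of the 164 genes was -0.58, against -0.10 for the genes with a CTRL mean of at least 50. The rule used the CTRL libraries that also serve in this comparison, so that genes with a high CTRL measurement entered more readily.

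After TIP60 RNAi 56 of the genes (34.1%) were lower, 2 (1.22%) were higher and 106 were not called. The background was 8.43% lower and 4.88% higher over all genes tested, and 13.6% lower and 5.15% higher among those with a CTRL mean of at least 50. The median log2 fold-change was -0.53, against -0.13 for the genes with a CTRL mean of at least 50. The same CTRL libraries enter here as well. Of the 164 genes, 48 were lower after both DOM-A and TIP60 RNAi, 10 after DOM-A RNAi only and 8 after TIP60 RNAi only by these calls, and 95 were called in neither.

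To set the levels against a CTRL library that the rule had not used, the rule was applied without each CTRL library in turn, an alternative added after the data were seen. The 156, 152 and 191 genes then found had median log2 ratios of -0.54, -0.56 and -0.35 after DOM-A RNAi over the CTRL library left out (replicates 1, 2 and 3). For TIP60 RNAi these medians were -0.55, -0.56 and -0.22. Over all genes with a CTRL mean of at least 50, the corresponding medians lay between -0.12 and -0.05 for DOM-A RNAi and between -0.15 and -0.09 for TIP60 RNAi. The median ratios were lower for the genes of the rule in each of the 6 settings, and closest to the background with CTRL replicate 3 left out. Ratios below 0 were seen in 73.7%, 75.7% and 70.7% of these genes after DOM-A RNAi, against 58.7%, 56.7% and 54.6% of the background. After TIP60 RNAi the shares were 71.8%, 69.1% and 64.4%, against 62.6%, 60.1% and 58.7%. Each setting rests on 1 CTRL library and was not tested.

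**Figure D2:**
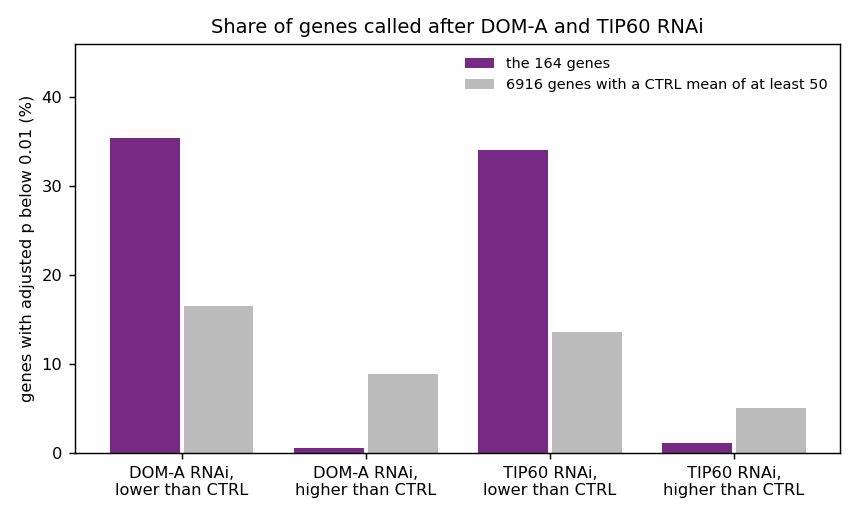
Share of genes with an adjusted p below 0.01 (y axis, percent) that were lower or higher than in CTRL after DOM-A and TIP60 RNAi (x axis), for the 164 genes (purple) and for the 6916 genes with a CTRL mean of at least 50 (grey). Among the 164 genes 35.4% were lower after DOM-A RNAi and 34.1% after TIP60 RNAi, against 16.6% and 13.6% of the 6916 genes, while 0.61% and 1.22% were higher, against 8.94% and 5.15%.

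The DOM-A and TIP60 ratios were set beside those of the rule as a description, since a rule that selects low DOM-B and H2A.V ratios leaves the other ratios more often above them. In 107 of the 164 genes both the DOM-A and the TIP60 ratio over CTRL lay above the DOM-B and H2A.V ratios, in 22 both lay below them, and in 53 all 4 ratios were at -0.8 or less. Within 0.3 log2 units of CTRL were 41 genes after DOM-A RNAi and 47 after TIP60 RNAi, whereas log2 fold-changes under -1 were seen in 54 and 50 genes, of which 47 and 43 were called. These size classes were not counted over the background genes, and the CTRL libraries of the rule enter them, so that they only describe the spread.

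The comparison of DOM-A RNAi with TIP60 RNAi shares no library with the rule. None of the 164 genes differed between these knock-downs in either direction at an adjusted p below 0.01 by the edgeR test, and the lowest adjusted p among them was 0.0862. Over all 11424 genes 0% were lower and 0.0175% higher after DOM-A RNAi than after TIP60 RNAi, and 0% and 0.0145% among the genes with a CTRL mean of at least 50. At an unadjusted p under 0.05, 19 of the 164 genes were lower and 10 higher after DOM-A RNAi, while of all 11424 genes 524 were lower and 967 higher. DESeq2 called 3 of the genes lower after DOM-A than after TIP60 RNAi, MtnA (adjusted p = 3.21e-05), the carboxylase gene GC (adjusted p = 0.0023) and Ldh (adjusted p = 0.0065), and none higher. In 156 of the 164 genes the estimated difference was smaller than 1 on the log2 scale. That count was not made over the background genes, so that it does not show a trait of the 164 genes.

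The log2 fold-change after DOM-A RNAi was lowest for MtnA. MtnA encodes a metallothionein, a small cysteine-rich protein that binds copper and zinc (chromosome 3R, 9783407 to 9784370, minus strand, BDGP6 release 6). MtnA had 939, 1480 and 362 normalised reads after DOM-B RNAi, 1111, 2093 and 622 after H2A.V RNAi, 114, 129 and 44.1 after DOM-A RNAi and 327, 1547 and 91.8 after TIP60 RNAi, against 4073, 7279 and 801 in CTRL. Replicate 3 was the lowest library in all 5 groups, and the CTRL value of that replicate lay within the range of the DOM-B, H2A.V and TIP60 libraries, while all DOM-A libraries lay below every CTRL library. The log2 fold-change was -5.14 ± 0.45 after DOM-A RNAi (SE, adjusted p = 3.69e-06) and -2.85 ± 0.39 after TIP60 RNAi (adjusted p = 0.000182), and without the replicate block the TIP60 call was lost (adjusted p = 0.0538).

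FBgn0010549 is the identifier of a gene that encodes an ABC transporter of the multidrug resistance-associated type (chromosome 2R, 9390165 to 9395281). Its level was 117, 283 and 212 normalised reads after DOM-B RNAi, 77.0, 195 and 172 after H2A.V RNAi, 49.7, 81.5 and 102 after DOM-A RNAi and 57.8, 66.4 and 190 after TIP60 RNAi, against 817, 1440 and 1076 in CTRL. The gene stood below all CTRL libraries in all 12 knock-down libraries, with log2 fold-changes of -3.89 ± 0.30 after DOM-A RNAi (adjusted p = 2.08e-06) and -3.46 ± 0.29 after TIP60 RNAi (adjusted p = 7.05e-06). GstE13, a glutathione S-transferase, also fell after both, by 1.17 on the log2 scale after DOM-A RNAi and by 0.95 after TIP60 RNAi. Prx6b, a peroxiredoxin, was not called in either (log2 fold-changes of 0.02 and 0.56), and its CTRL libraries spread between 17.5 and 152 normalised reads.

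The genes CG7860 and CG11899 code for enzymes of amino acid metabolism. CG7860 is an asparaginase-like gene on the X chromosome (15568993 to 15570369). It had 105, 224 and 116 normalised reads after DOM-B RNAi, 171, 191 and 156 after H2A.V RNAi, 14.4, 27.5 and 12.9 after DOM-A RNAi and 9.31, 9.29 and 9.77 after TIP60 RNAi, against 387, 344 and 268 in CTRL. The knock-downs thus fell into 2 tiers, with DOM-A and TIP60 libraries below every DOM-B and H2A.V library. The log2 fold-change was -4.20 ± 0.26 after DOM-A RNAi (adjusted p = 7.17e-07) and -5.10 ± 0.29 after TIP60 RNAi (adjusted p = 6.13e-07). The same order was seen for CG11899, the phosphoserine aminotransferase gene of serine synthesis, which averaged 75.5 normalised reads after DOM-B RNAi, 93.8 upon H2A.V RNAi, 27.6 after DOM-A RNAi and 17.8 after TIP60 RNAi, against 197 in CTRL. Its log2 fold-changes were -2.84 ± 0.29 after DOM-A RNAi and -3.44 ± 0.31 after TIP60 RNAi.

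Another pair of genes with low levels after DOM-A and TIP60 RNAi lies within transcribed regions of the opposite strand. CG45218, inside the locus of the tropomyosin gene Tm1, had log2 fold-changes of -3.64 ± 0.33 after DOM-A RNAi and -3.72 ± 0.33 after TIP60 RNAi. The antisense RNA asRNA:CR43964, which overlaps CG15093, had log2 fold-changes of -3.69 ± 0.49 and -3.24 ± 0.47. When counts ignored the strand, both calls of CG45218 (adjusted p = 0.026 after DOM-A RNAi and 0.0559 after TIP60 RNAi) and the TIP60 call of asRNA:CR43964 (adjusted p = 0.0373) were lost. Such counts can take in reads of the overlapping gene, and can lose reads that fall in both genes as ambiguous. Opposite-strand reads at asRNA:CR43964 averaged 309 after DOM-A RNAi and 358 after TIP60 RNAi, against 924 in CTRL. At CG45218 they averaged 46.3 and 49.4, against 27.4. Why the calls were lost was not tested.

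**Figure D3:**
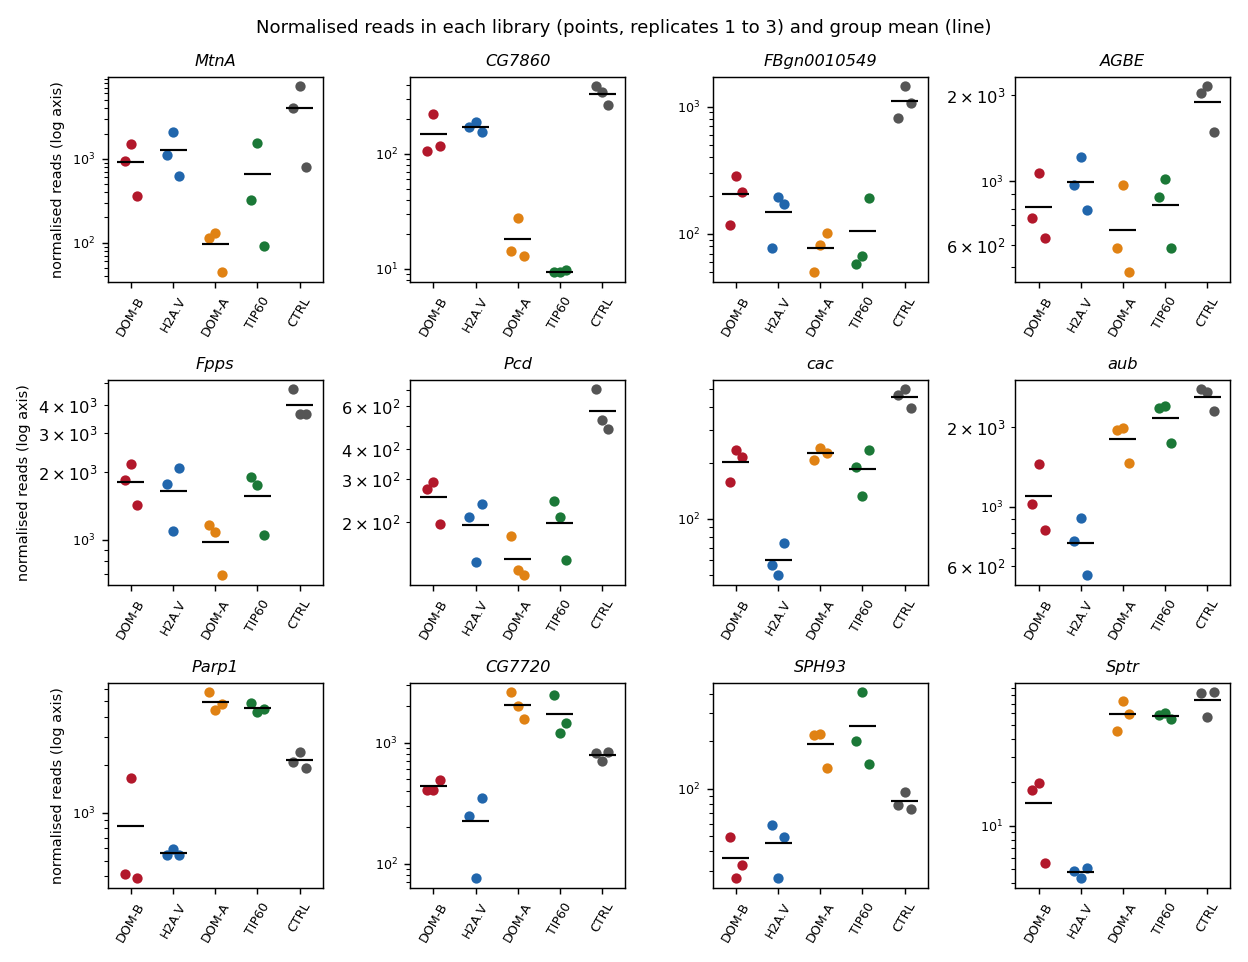
Normalised reads per library (y axis, log scale, with its own range in each panel) of 12 of the genes after DOM-B, H2A.V, DOM-A and TIP60 RNAi and in CTRL (x axis). Points are replicates 1, 2 and 3 from left to right and lines are group means. MtnA, CG7860 and FBgn0010549 stood below CTRL in most knock-down libraries, whereas Parp1, CG7720 and SPH93 stood above all CTRL libraries after DOM-A and TIP60 RNAi and below all CTRL libraries after DOM-B and H2A.V RNAi.

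Both genes of glycogen metabolism in the rule were also lower after DOM-A and TIP60 RNAi. AGBE, the glycogen branching enzyme (chromosome 2R, 13171401 to 13174796), had 746, 1067 and 634 normalised reads after DOM-B RNAi, 973, 1214 and 790 after H2A.V RNAi, 583, 969 and 479 after DOM-A RNAi and 884, 1016 and 584 after TIP60 RNAi, against 2030, 2146 and 1491 in CTRL. No knock-down library reached the lowest CTRL library. The log2 fold-change was -1.52 ± 0.13 after DOM-A RNAi (adjusted p = 3.28e-06) and -1.21 ± 0.13 after TIP60 RNAi (adjusted p = 2.73e-05).

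Gbs-76A encodes a subunit that directs protein phosphatase 1 to glycogen (chromosome 3L, 19281364 to 19292766). It averaged 171 normalised reads after DOM-B RNAi, 141 upon H2A.V RNAi, 49.1 after DOM-A RNAi and 73.3 after TIP60 RNAi, against 340 in CTRL, with log2 fold-changes of -2.86 ± 0.26 after DOM-A RNAi and -2.29 ± 0.25 after TIP60 RNAi. In a list of 9 tested glycogen genes, which includes AGBE and Gbs-76A, 7 were lower in both the DOM-A and the TIP60 knock-down, 4 in that of DOM-B and 5 in that of H2A.V, and none was higher. The rule chose AGBE and Gbs-76A for low DOM-B and H2A.V levels, so that their calls there add no support for the list. Apart from them, the DOM-B calls were those of Glyp and Pgm1, and the H2A.V calls those of Glys, Glyp and Gyg. Without the replicate block 4 were lower in the DOM-A knock-down, 4 in that of TIP60, 0 in that of DOM-B and 1 in that of H2A.V. Over all genes tested 2.33% were lower and 2.74% higher after DOM-B RNAi, and 11.5% were lower and 1.23% higher after H2A.V RNAi.

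The other glycogen genes called lower after DOM-A RNAi were Glys, the glycogen synthase, Glyp, the glycogen phosphorylase, Gyg, the glycogenin that primes the polymer, Pgm1, the phosphoglucomutase, and PhKgamma, a phosphorylase kinase subunit. Their log2 fold-changes lay between -2.62 for Pgm1 and -0.87 for PhKgamma. They missed the rule because they were above the cut-off in at least 1 of its knock-downs. Pgm1, for example, averaged 1768 normalised reads after DOM-B RNAi and 4451 after H2A.V RNAi, against 3903 in CTRL.

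In the group of 13 genes of carbohydrate use and mitochondria, 6 were lower after DOM-A RNAi and 4 after TIP60 RNAi. For this and the role groups below, the shares over all 164 genes were 35.4% after DOM-A RNAi and 34.1% after TIP60 RNAi. Among the genes with a CTRL mean of at least 50 they were 16.6% and 13.6%. The groups are small, were formed after the values were seen and were not tested against these shares. Ldh, the lactate dehydrogenase and most abundant of the 164 genes, had 13860, 7594 and 4231 normalised reads after DOM-A RNAi and 22630, 36920 and 7444 after TIP60 RNAi, against 28380, 31130 and 21150 in CTRL. The DOM-A libraries all lay below CTRL, with a log2 fold-change of -1.76 ± 0.32 (adjusted p = 0.000911, and 0.0194 without the replicate block), whereas the TIP60 libraries overlapped with CTRL and were not called (log2 fold-change of -0.45 ± 0.31).

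Sirup, an assembly factor of succinate dehydrogenase, varied widely between replicates, with 1083, 3434 and 666 normalised reads after DOM-B RNAi and 2460, 1431 and 508 after DOM-A RNAi, against 7596, 5191 and 3862 in CTRL. Its DOM-A call (log2 fold-change of -2.10 ± 0.50, adjusted p = 0.00584) was lost without the replicate block, CTRL replicate 1 or 3 or DOM-A replicate 2 or 3, at adjusted p up to 0.0436. MICU3, a regulator of mitochondrial calcium uptake, fell by 1.40 on the log2 scale after DOM-A RNAi and by 0.88 after TIP60 RNAi. Rpe, the ribulose-phosphate epimerase of the pentose phosphate pathway, fell by 1.04 after DOM-A RNAi and by 0.84 after TIP60 RNAi. By contrast Idh3g, an isocitrate dehydrogenase subunit, Coq3, an enzyme of ubiquinone synthesis, and GluRS-m, a mitochondrial tRNA synthetase, were not called in either, with log2 fold-changes between -0.35 and 0.27.

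Of 8 genes of lipid metabolism, 4 were lower after DOM-A RNAi and 5 after TIP60 RNAi, and none was higher. Fpps makes farnesyl diphosphate, the branch point product of the mevalonate pathway (chromosome 2R, 11305511 to 11307528). Fpps had 1841, 2188 and 1434 normalised reads after DOM-B RNAi, 1779, 1097 and 2103 after H2A.V RNAi, 1167, 1081 and 693 after DOM-A RNAi and 1913, 1759 and 1049 after TIP60 RNAi, against 4704, 3651 and 3640 in CTRL. All 12 knock-down libraries lay below the lowest CTRL library, with log2 fold-changes of -2.05 ± 0.25 after DOM-A RNAi (adjusted p = 5.69e-05) and -1.37 ± 0.25 after TIP60 RNAi (adjusted p = 0.00134).

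The other mevalonate pathway genes did not share this pattern. Of 7 tested genes of that list, Fpps included, 1 was lower and 1 higher after DOM-B RNAi, 4 were lower after H2A.V RNAi, 2 were lower and 2 higher after DOM-A RNAi and 1 was lower and 2 higher after TIP60 RNAi. The gene lower after DOM-B RNAi was Fpps itself, which the rule had chosen. Without the replicate block 0 were called after DOM-B RNAi, 1 was lower after DOM-A RNAi and 1 higher after TIP60 RNAi, and with TMM on D. melanogaster counts 1 was lower after H2A.V RNAi. Mvd and qm, which make isopentenyl diphosphate and geranylgeranyl diphosphate, were higher after both DOM-A RNAi (log2 fold-changes of 0.63 and 1.01) and TIP60 RNAi (0.76 and 0.61). CG31522, a fatty acid elongase gene, and Pebp1, a phosphatidylethanolamine-binding protein gene, were both lower after DOM-A RNAi, with log2 fold-changes of -1.44 ± 0.13 and -2.20 ± 0.37.

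Among 8 genes of cofactor, haem and purine metabolism, 5 were lower after DOM-A RNAi and 3 after TIP60 RNAi. Pcd recycles the tetrahydrobiopterin cofactor (chromosome 3R, 29723163 to 29724226). It had 274, 293 and 196 normalised reads after DOM-B RNAi, 210, 137 and 238 after H2A.V RNAi, 175, 127 and 120 after DOM-A RNAi and 245, 210 and 140 after TIP60 RNAi, against 706, 530 and 482 in CTRL. The knock-down libraries did not overlap with CTRL, and the log2 fold-change was -2.03 ± 0.22 after DOM-A RNAi (adjusted p = 2.04e-05) and -1.54 ± 0.21 after TIP60 RNAi (adjusted p = 0.00022).

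Sptr, the sepiapterin reductase of tetrahydrobiopterin synthesis (X chromosome, 8463296 to 8464438), behaved differently. Sptr had 17.7, 19.6 and 5.50 normalised reads after DOM-B RNAi, 4.86, 4.31 and 5.11 after H2A.V RNAi, 44.9, 73.0 and 58.9 after DOM-A RNAi and 58.7, 59.8 and 54.7 after TIP60 RNAi, against 83.3, 56.1 and 83.9 in CTRL. The DOM-A and TIP60 libraries overlapped with CTRL and were not called, at log2 fold-changes of -0.34 ± 0.32 and -0.38 ± 0.32. At 4 to 5 normalised reads, the H2A.V libraries approached the limit of what the depth resolves.

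The purine enzyme gene ry, the xanthine dehydrogenase whose loss gives the rosy eye colour, was lowest after TIP60 RNAi, with 30.7, 37.2 and 49.8 normalised reads, against 151, 214 and 196 in CTRL. Its log2 fold-changes were -1.36 ± 0.30 after DOM-A RNAi (adjusted p = 0.00365) and -2.25 ± 0.32 after TIP60 RNAi (adjusted p = 0.000246). The DOM-A call was lost without any of the CTRL replicates and without DOM-A replicate 1 or 2, at adjusted p up to 0.0215. Alas, the first enzyme of haem synthesis, fell by 1.48 on the log2 scale after DOM-A RNAi (adjusted p = 0.00114, and 0.0152 without the replicate block). Rift, a riboflavin transporter, and Pdxk, a pyridoxal kinase, were not called after DOM-A RNAi, at log2 fold-changes of -0.07 and -0.58. In the list of 9 pterin genes, which holds Sptr, Pcd and ry, 2 were lower after DOM-B RNAi, 4 upon H2A.V RNAi, 3 after DOM-A RNAi and 3 after TIP60 RNAi, and none was higher. The DOM-B calls were those of Sptr and Pcd, and the H2A.V calls those of Sptr, Pcd, ry and mal. Since the rule chose Sptr, Pcd and ry for low levels in these knock-downs, their calls there add no support for the list. The DOM-B count was 1 without the replicate block, and the H2A.V count was 2 with TMM on D. melanogaster counts.

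Of 8 genes of glycan synthesis and turnover, 2 were lower after DOM-A RNAi and 2 after TIP60 RNAi, and only Chsy was among both. Chsy, the chondroitin synthase, had 112, 47.4 and 119 normalised reads after DOM-A RNAi and 102, 51.8 and 174 after TIP60 RNAi, against 500, 360 and 650 in CTRL. Its log2 fold-changes were -2.49 ± 0.23 and -2.26 ± 0.23. Gnpnat, the acetyltransferase of UDP-GlcNAc synthesis, averaged 63.5 normalised reads after DOM-B RNAi, 44.2 upon H2A.V RNAi, 112 after DOM-A RNAi and 152 after TIP60 RNAi, against 171 in CTRL, and was not called in the last 2 knock-downs (adjusted p = 0.0153 and 0.493). In a list of 5 tested genes of that synthesis with Gnpnat among them, 2 were lower in each of the DOM-B, H2A.V and DOM-A knock-downs, and mmy, the last enzyme, was higher after DOM-A and TIP60 RNAi. The genes lower in the DOM-B and H2A.V knock-downs included Gnpnat itself, which the rule had chosen. Both mmy calls were lost without the replicate block, and 1 gene was then lower in each of the DOM-B and DOM-A knock-downs.

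The glycan genes other than Chsy gave log2 fold-changes between -0.61 and 0.20 after DOM-A RNAi. Of these Gmppa, a subunit related to GDP-mannose pyrophosphorylase, was called lower after DOM-A RNAi (-0.57 ± 0.12, adjusted p = 0.00283), and O-fut2, a fucosyltransferase, after TIP60 RNAi (-0.70 ± 0.16, adjusted p = 0.00573). The Gmppa call was lost without the replicate block, CTRL replicate 1 or 2 or DOM-A replicate 1 or 3 (adjusted p up to 0.0174), and the O-fut2 call without the replicate block, any CTRL replicate or TIP60 replicate 2 or 3 (adjusted p up to 0.18). The hexosaminidase gene Hexo1, the GDP-fucose transporter gene nac and the Golgi nucleotide sugar transporter gene senju were not called in either.

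Genes known for roles in the germ line and in small RNA pathways formed a group of 7, with 2 lower after DOM-A RNAi, 3 after TIP60 RNAi and none higher. The Piwi-family gene aub is needed for piRNA silencing of transposons (chromosome 2L, 10997819 to 11001476). It had 1028, 1452 and 818 normalised reads after DOM-B RNAi, 741, 907 and 553 after H2A.V RNAi, 1946, 1978 and 1460 after DOM-A RNAi and 2350, 2386 and 1745 after TIP60 RNAi, against 2766, 2703 and 2296 in CTRL. The DOM-A libraries lay between those of DOM-B and CTRL. The log2 fold-change was -0.54 ± 0.12 after DOM-A RNAi (adjusted p = 0.00398) and -0.27 ± 0.12 after TIP60 RNAi, which was not called. The DOM-A call was lost without the replicate block, CTRL replicate 1 or 3 or any DOM-A replicate, at adjusted p up to 0.0904.

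Nxf3, which exports piRNA precursors, averaged 408 normalised reads after DOM-B RNAi, 346 upon H2A.V RNAi, 942 after DOM-A RNAi and 888 after TIP60 RNAi, against 729 in CTRL, and was not called in either of the last 2 knock-downs. The 32 tested genes of the piRNA pathway list hold aub and Nxf3. In that list 3 genes were lower and 4 higher after DOM-B RNAi, 10 were lower and 2 higher after H2A.V RNAi, 9 were lower and 3 higher after DOM-A RNAi, and 6 were lower and 1 higher after TIP60 RNAi. Without the replicate block 1 was lower after DOM-B RNAi, 6 were lower after H2A.V RNAi and 5 were lower after DOM-A RNAi, and with TMM on D. melanogaster counts 6 were lower after DOM-B RNAi and 5 after H2A.V RNAi by these calls. The genes piwi and vas moved against aub, since piwi averaged 571 normalised reads after DOM-B RNAi and 655 after H2A.V RNAi, against 99.9 in CTRL, and vas averaged 122 after DOM-B RNAi and 54.8 after H2A.V RNAi, against 5.76 in CTRL.

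The hairpin RNA genes hpRNA:CR32205, hpRNA:CR32207 and hpRNA:CR33940, whose transcripts are precursors of endogenous siRNAs, lie on the minus strand of chromosome 3L between 19420390 and 19488439. The most abundant, hpRNA:CR33940, had 390, 587 and 388 normalised reads after DOM-B RNAi, 197, 236 and 192 after H2A.V RNAi, 574, 610 and 616 after DOM-A RNAi and 456, 404 and 647 after TIP60 RNAi, against 938, 972 and 918 in CTRL. All knock-down libraries lay below CTRL and the H2A.V libraries were the lowest. After TIP60 RNAi hpRNA:CR32207 (log2 fold-change of -0.94 ± 0.15, adjusted p = 0.000553) and hpRNA:CR33940 (-0.91 ± 0.18, adjusted p = 0.00222, and up to 0.0161 without CTRL replicate 1 or TIP60 replicate 1 or 2) were lower, and after DOM-A RNAi none of the 3 was called. Hairpin loci consist of repeats, and reads with several positions were discarded before counting, so that their levels are uncertain.

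In the list of 10 tested endogenous siRNA genes, the 3 hairpin genes included, 2 were lower and 1 higher after DOM-B RNAi, 4 were lower after H2A.V RNAi, 2 were lower and 3 higher after DOM-A RNAi, and 4 were lower and 2 higher after TIP60 RNAi. The genes lower after DOM-B RNAi were all hairpin genes chosen by the rule, and so were those lower after H2A.V RNAi except blanks. The fit with no replicate block gave 1 lower after DOM-A RNAi and 1 higher after TIP60 RNAi. The kinase gene png, which acts at egg activation, had 77.2, 81.2 and 63.3 normalised reads after DOM-B RNAi, 26.7, 64.0 and 28.1 after H2A.V RNAi, 210, 210 and 171 after DOM-A RNAi and 215, 198 and 163 after TIP60 RNAi, against 399, 412 and 255 in CTRL. Its calls after DOM-A RNAi (-0.83 ± 0.20, adjusted p = 0.00674) and TIP60 RNAi (-0.86 ± 0.20, adjusted p = 0.00714) were both lost without the replicate block and without any of the CTRL replicates, DOM-A replicate 1 or DOM-B replicate 1. The DOM-A call was also lost without DOM-A replicate 2 or 3 or TIP60 replicate 3 (adjusted p up to 0.0465), and the TIP60 call without any of the TIP60 replicates and with scaling by the D. melanogaster counts (TMM, adjusted p up to 0.0526). The summed level of 4 germ line markers, all detected, was 2233 to 3025 normalised reads in DOM-B RNAi cells, 2068 to 2559 in H2A.V RNAi cells, 828 to 929 in DOM-A RNAi cells and 918 to 1445 in TIP60 RNAi cells, against 1616 to 2038 in CTRL. The markers zpg and bam, with CTRL means of 1285 and 435, dominate this sum. The marker vas averaged 24.5 after DOM-A RNAi and 16.4 after TIP60 RNAi, against 5.76 in CTRL. For nanos these means were 54.5 and 85.0, against 71.0. The part of these markers in the results was not tested.

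The translation initiation factor eIF3 had 1 subunit gene within the rule. The eIF3h gene (chromosome 2L, 5051193 to 5053094) had 3557, 2996 and 2598 normalised reads after DOM-B RNAi, 3009, 3485 and 2725 after H2A.V RNAi, 4790, 4521 and 3436 after DOM-A RNAi and 5631, 5683 and 3879 after TIP60 RNAi, against 6114, 6299 and 4157 in CTRL. The DOM-B and H2A.V libraries were the lowest in each replicate number, and the log2 fold-changes of -0.37 ± 0.12 after DOM-A RNAi (adjusted p = 0.0247) and -0.12 ± 0.12 after TIP60 RNAi (adjusted p = 0.477) were not called. Of 14 tested eIF3 genes 8 were lower after DOM-B RNAi, 10 upon H2A.V RNAi, 6 after DOM-A RNAi and 1 after TIP60 RNAi, and none was higher. Without the replicate block these counts were 0, 5, 4 and 0, and with scaling by the D. melanogaster counts (TMM) the H2A.V count was 4. The list's median log2 fold-change was -0.70 after DOM-B RNAi and -0.61 after H2A.V RNAi, and the other 13 genes missed the rule.

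Among 12 cell surface and signalling genes, 3 were lower after DOM-A RNAi and 5 after TIP60 RNAi. The gene cac encodes the pore-forming subunit of a voltage-gated calcium channel of presynaptic terminals (X chromosome, 11931280 to 11985087). It had 158, 234 and 216 normalised reads after DOM-B RNAi, 56.7, 49.6 and 74.1 after H2A.V RNAi, 208, 242 and 225 after DOM-A RNAi and 191, 133 and 234 after TIP60 RNAi, against 462, 499 and 397 in CTRL. All knock-down libraries lay below CTRL. The log2 fold-change was -1.01 ± 0.20 after DOM-A RNAi (adjusted p = 0.00181, and up to 0.0142 without CTRL replicate 1 or 2 or DOM-A replicate 1 or 3) and -1.29 ± 0.20 after TIP60 RNAi (adjusted p = 0.000544).

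Dscam1, an immunoglobulin superfamily receptor of neurons and blood cells, was not called after DOM-A or TIP60 RNAi, with 1027, 1194 and 1230 normalised reads after DOM-A RNAi and 1304, 1657 and 1323 after TIP60 RNAi, against 1191, 1179 and 1854 in CTRL. In the list of 14 tested genes of neuronal membranes and synapses, which holds cac and Dscam1, 3 were lower after DOM-B RNAi, 6 upon H2A.V RNAi, 2 after DOM-A RNAi with 2 higher, and 3 after TIP60 RNAi with 1 higher. The genes lower after DOM-B RNAi were cac, Rph and Appl, of which cac and Appl met the cut-offs of the rule. The higher genes numbered 1 after DOM-A RNAi and 0 after TIP60 RNAi without the replicate block. The receptor gene mth fell by 1.08 on the log2 scale after TIP60 RNAi (adjusted p = 0.00152, and 0.0157 without CTRL replicate 1), and Ctl1, a choline transporter-like gene, had log2 fold-changes of -1.52 after DOM-A RNAi and -1.89 after TIP60 RNAi, both called. Its DOM-A call was lost without the replicate block, CTRL replicate 1 or DOM-A replicate 1 (adjusted p up to 0.0374), and its TIP60 call without the block (adjusted p = 0.0132). The Wnt receptor gene fz2 and the tetraspanin gene Tsp3A were near CTRL in both, at log2 fold-changes between -0.11 and 0.35.

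Of 8 genes of immune and secreted proteins, 3 were lower after DOM-A RNAi and 3 after TIP60 RNAi, and SPH93 was higher after TIP60 RNAi. Spn42De, a serpin, had 11.2, 2.84 and 7.36 normalised reads after DOM-A RNAi and 4.66, 17.3 and 10.7 after TIP60 RNAi, against 64.5, 76.3 and 82.0 in CTRL, and its log2 fold-changes were -3.45 ± 0.49 and -2.85 ± 0.45. Lsp1beta, a larval serum protein gene, and GNBP2, of the family of glucan-binding proteins, were lower after both as well. Their TIP60 calls were lost without CTRL replicate 1, TIP60 replicate 1 or 3 and, for GNBP2, CTRL replicate 2 or, for Lsp1beta, CTRL replicate 3 (adjusted p up to 0.0161 for GNBP2 and 0.0449 for Lsp1beta). When counts ignored the strand, both Lsp1beta calls were lost (adjusted p up to 0.309 after DOM-A RNAi).

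SPH93, a serine protease homologue (chromosome 2L, 17454263 to 17455923), had 49.0, 27.1 and 33 normalised reads after DOM-B RNAi, 59.1, 27.3 and 49.4 after H2A.V RNAi, 220, 222 and 135 after DOM-A RNAi and 201, 408 and 143 after TIP60 RNAi, against 78.9, 95.3 and 74.7 in CTRL. Its DOM-A and TIP60 libraries all lay above CTRL. The log2 fold-change was 1.54 ± 0.34 after TIP60 RNAi (adjusted p = 0.00506, and up to 0.0355 without any of the CTRL replicates or TIP60 replicate 2) and 1.18 ± 0.34 after DOM-A RNAi (adjusted p = 0.017, not called). The growth factor gene Idgf1 and the prophenoloxidase gene PPO3, both expressed by blood cells, averaged 628 and 293 normalised reads after DOM-A RNAi and 628 and 462 after TIP60 RNAi, against 371 and 368 in CTRL, and were not called. The summed blood cell markers were higher after DOM-A and TIP60 RNAi than in CTRL, in the ranges given above, whereas the PPO3 mean was lower after DOM-A RNAi. Their part in the levels of these genes was not tested.

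Of both genes of ADP-ribosylation, neither was called after DOM-A or TIP60 RNAi. Parp1 makes poly(ADP-ribose) at sites of damage and at loosened chromatin (chromosome 3R, 3461351 to 3587054). Parp1 had 412, 1666 and 389 normalised reads after DOM-B RNAi, 540, 590 and 546 after H2A.V RNAi, 5707, 4415 and 4831 after DOM-A RNAi and 4914, 4266 and 4458 after TIP60 RNAi, against 2095, 2391 and 1918 in CTRL. None of these groups overlapped with CTRL, in opposite directions, and replicate 2 of DOM-B RNAi stood closer to CTRL than to the other DOM-B libraries. The log2 fold-changes of 1.25 ± 0.36 after DOM-A RNAi (adjusted p = 0.0157) and 1.12 ± 0.36 after TIP60 RNAi (adjusted p = 0.0344) did not pass the threshold of 0.01. Targ1, a hydrolase that removes ADP-ribose, had log2 fold-changes of -1.51 ± 0.48 after DOM-A RNAi and -0.87 ± 0.46 after TIP60 RNAi, which were not called. In the list of 4 tested genes of poly(ADP-ribose) and base excision repair, with Parp1 among them, none was called after DOM-B or DOM-A RNAi, 1 was lower with H2A.V depleted and 1 with TIP60 depleted. The H2A.V call was that of Parp1 itself, which the rule had chosen. With TMM on D. melanogaster counts 2 were lower after DOM-B RNAi and 1 was higher after DOM-A RNAi.

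Higher levels than in CTRL after DOM-A or TIP60 RNAi were otherwise rare. CG7720, a gene without an assigned role here (chromosome 3R, 18759236 to 18795169), had 406, 407 and 495 normalised reads after DOM-B RNAi, 250, 75.5 and 352 after H2A.V RNAi, 2614, 1997 and 1564 after DOM-A RNAi and 2503, 1198 and 1459 after TIP60 RNAi, against 820, 702 and 837 in CTRL. It was the only one of the 164 genes called higher after DOM-A RNAi (log2 fold-change of 1.39 ± 0.33, adjusted p = 0.00565), a call lost without the replicate block, any CTRL replicate or DOM-A replicate 1 or 2, at adjusted p up to 0.0374. After TIP60 RNAi it was not called (1.08 ± 0.33, adjusted p = 0.0285). Nepl19, a neprilysin-like gene, was called higher after TIP60 RNAi (1.49 ± 0.36, adjusted p = 0.00779, and up to 0.0775 without the replicate block, CTRL replicate 1 or 3, DOM-A replicate 1 or 3, DOM-B replicate 1 or any TIP60 replicate), with 424, 113 and 306 normalised reads, against 132, 65.7 and 75.6 in CTRL. All 3 libraries lay above every CTRL library in 5 of the 164 genes after DOM-A RNAi and in 9 after TIP60 RNAi, and all lay below every CTRL library in 81 after DOM-A RNAi and in 77 after TIP60 RNAi. The rule used the same CTRL libraries, which favours the counts below CTRL. Such counts were not made over the background genes, so that they do not show a trait of the 164 genes.

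Of the 8 genes with the lowest summed DOM-B and H2A.V ratios, CG11843, CG17129, CG5080, CG6495 and Sptr were called neither after DOM-A nor after TIP60 RNAi, and CG3625, png and FBgn0010549 were lower after both. CG6495 had 110, 354 and 123 normalised reads after DOM-B RNAi, 56.7, 61.8 and 50.2 after H2A.V RNAi, 559, 1034 and 435 after DOM-A RNAi and 765, 433 and 548 after TIP60 RNAi, against 954, 830 and 804 in CTRL. CG5080 averaged 392 after DOM-B RNAi and 110 after H2A.V RNAi, with 1187 after DOM-A RNAi and 1180 after TIP60 RNAi, against 1255 in CTRL, and CG17129 averaged 44.6, 20.8, 230 and 216 in the same order, against 179 in CTRL.

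CG11843, the gene with the lowest DOM-B ratio, -3.55, had 2.09, 2.80 and 6.42 normalised reads after DOM-B RNAi, against 53.3, 45.5 and 65.4 in CTRL. For CG3625 the H2A.V ratio was -3.30 and the DOM-B ratio -1.63, and the gene was lower after DOM-A RNAi (log2 fold-change of -1.63 ± 0.23) and TIP60 RNAi (-2.19 ± 0.24) as well. Of the abundant genes, CG34330 averaged 1887 normalised reads after DOM-B RNAi, 884 upon H2A.V RNAi, 1901 after DOM-A RNAi and 1226 after TIP60 RNAi, against 5673 in CTRL, but was not called after DOM-A RNAi (adjusted p = 0.0633) or TIP60 RNAi (adjusted p = 0.0233). The mustard gene mtd, linked to immune tolerance, was near CTRL after both, at log2 fold-changes of -0.36 and 0.14.

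The other 90 of the 164 genes were placed in no role group. They include genes of known function, such as CG7860, CG11899 and Rtca. Of the 164 genes 68 carry only a CG or CR number. Among these 90 genes 29 were lower and 1 was higher after DOM-A RNAi, and 27 were lower and 1 higher after TIP60 RNAi. Rtca, an RNA 3′-phosphate cyclase, was lower after both, at log2 fold-changes of -1.25 and -1.02. Of 3 genes of cilia and centrosomes, Cep164 was lower after both DOM-A RNAi (log2 fold-change of -2.08) and TIP60 RNAi (-2.25), while Nek2 and tilB were not called. None of the 13 tested genes of the DOM-B complex list met the rule, and in that list 5 were lower after H2A.V RNAi (2 with TMM on D. melanogaster counts) and 2 were higher after TIP60 RNAi (1 without the replicate block).

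The genes were spread over the genome. On the X chromosome lay 37 (22.6%, against 17.7% of the genes with a CTRL mean of at least 50), on 2L 27, on 2R 32, on 3L 31, on 3R 37 and on chromosome 4 none (52 genes of that background lie there). By annotation 152 were protein coding, 10 (6.1%, against 1.82%) were non-coding RNAs and 2 were pseudogenes. The median exonic length of the protein-coding members was 1768 nt, against 2174 nt in the background. These shares were described without a test.

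In 8 instances members of the rule were neighbours. The genes cac and gd, a serine protease of the dorsal pathway, lie 66 nt apart on the same strand, and gd was not called after DOM-A RNAi (log2 fold-change of -0.52 ± 0.26) or TIP60 RNAi (-0.76 ± 0.26). The head-to-head genes aub and lectin-33A lie 595 nt apart, and lectin-33A was not called (-0.34 ± 0.30 and -0.40 ± 0.30). The start of eIF3h and that of senju overlap on opposite strands, and the 3 pairs mthl10 and mth, fus and Gmppa, and CIA30 and Gnpnat lie on the same strand, at distances of 462, 548 and 204 nt.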

How the data were processed

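The authors mapped 50 nt single reads of directional poly(A) libraries with STAR 2.5.3a to the D. melanogaster genome (dm6) and separately to that of D. virilis, kept reads with a unique position, and deposited raw read counts per gene and library, both with strands combined and for each strand. The counts of the transcribed strand were used here. Rows that name no gene (unmapped, ambiguous or outside genes, D. virilis reads among the unmapped) held 49.1% to 60% of the reads and were left out. Symbols and positions came from a newer BDGP6 annotation, which matched 17343 of 17481 identifiers.

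Counts were divided by size factors (median of ratios) from the D. virilis counts. The 11424 genes reaching 1 read in 6 or more samples were tested with edgeR 4.0.16 (R 4.3.3, quasi-likelihood F-test, all 15 libraries, group plus replicate block as in the study's methods, Benjamini-Hochberg, threshold 0.01), and the procedure was tested on simulated data. DESeq2 1.42.0, other scalings, filters and thresholds, counts without regard to strand, no replicate block and leaving out each library were tried as alternatives. Deviations from the group means correlated between same-numbered libraries of different groups, with a mean of 0.356 over 30 pairs (0.0316 to 0.709). The mean for other numbers was -0.176. Centring on the group means makes that value negative where same-numbered libraries correlate, so that it is no baseline. SE is the log2 fold-change divided by the square root of its F value.

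The genes of the rule and all gene lists were chosen with earlier results of these data known. Genes of the rule that stand in a list were chosen for low DOM-B and H2A.V levels. They therefore raise the lower counts of that list in these knock-downs. Genes were named where they stood in a list, were among the 6 most abundant or the 8 with the lowest summed DOM-B and H2A.V ratios, had the 5 largest called changes in a direction, or lay nearest the cut-off. Others are examples of role groups formed after their values were seen. Roles are textbook knowledge. No sequence was analysed here.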

Additional observations from a re-analysis of the deposited data

Results flagged for a closer look

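Reads from the opposite strand of the members entered only the counts that ignored the strand and were not tested on their own. For CG13248 they averaged 572 normalised reads after DOM-A RNAi (529, 521 and 665), against 141 in CTRL (108, 142 and 173). They also lay above every CTRL library after DOM-B RNAi (275, 367 and 482) and TIP60 RNAi (296, 274 and 434), while the H2A.V RNAi libraries (110, 74.8 and 353) overlapped with CTRL. CG13248 itself averaged 1336 normalised reads after DOM-A RNAi and 1232 in CTRL. The non-coding gene lncRNA:CR45973 is annotated on the opposite strand there, and no test was made of these reads.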

How the results depend on the processing

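The number of genes that met the rule was 93 with total D. virilis counts as the scale and 90 with a cut-off of -1, all of them among the 164, and lay between 137 and 215 without 1 library. Members lower after DOM-A RNAi numbered between 42 and 61 without 1 library, members lower after TIP60 RNAi between 38 and 61, and every other setting stayed within 1.5 times of 58 and 56. The few members higher after DOM-A RNAi numbered 0 without the replicate block, 2 with TMM on D. virilis counts, with counts without regard to strand and with a mean of at least 10 reads, 3 with TMM on D. melanogaster counts, 4 with DESeq2 and without a filter, 5 with only the libraries compared and at a threshold of 0.05, and 0 to 4 without 1 library (0 without any CTRL library or without replicate 1 of DOM-A RNAi, 4 without replicate 2 of DOM-B RNAi). Members higher after TIP60 RNAi numbered 1 without the replicate block, 4 with DESeq2 and at a threshold of 0.05, 7 with only the libraries compared, and 0 to 4 without 1 library (0 without CTRL replicate 1 or 3 or TIP60 replicate 2). DESeq2 called 3 members lower after DOM-A than after TIP60 RNAi, and leaving out 1 library gave 0 in both directions. Without the replicate block 43 of the 59 DOM-A calls and 45 of the 58 TIP60 calls of members kept their direction and threshold, and calls in the gene lists over the 4 knock-downs numbered 97, against 160. TMM on D. melanogaster counts moved the median log2 ratio of all genes after H2A.V RNAi to 0.02, against -0.19, and the rule then found 138 genes, of which 120 were among the 164. Total D. virilis counts moved that median to 0.20 after DOM-B RNAi, against 0.06, and to -0.17 after TIP60 RNAi, against -0.04. Of 74 calls of the genes examined singly, 43 held under all 24 alternatives, and no called value changed sign. The cause of these changes was not tested. Members near 50 normalised reads have little precision.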
